A study of Rattus norvegicus and Mus musculus with 34 samples.

Results

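The nuclear-encoded subunits of oxidative phosphorylation were followed in 2 experiments: mouse macrophage-like cells given lipopolysaccharide (LPS) with or without the neuropeptide CGRP, and healing tissue of a bone defect in the rat jaw with or without its sensory nerve. Members were chosen by symbol alone, as genes whose symbols begin with Nduf followed by a, b, c, s or v and a digit, equal Sdha, Sdhb, Sdhc or Sdhd, or begin with Uqcr, with Cox followed by a digit from 4 to 8 and a letter, or with Atp5. This gave 92 of 51912 genes in the mouse table and 86 of 20022 in the rat tables, and 81 symbols stood in both. In the mouse 42 members belonged to complex I, 4 to complex II, 8 to complex III, 19 to complex IV and 19 to complex V. In the rat these complexes held 40, 4, 8, 16 and 18 members.

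The cells were RAW264.7, a single mouse macrophage-like line, and all 11 cultures received LPS at 100 ng/ml for 6 h. The LPS group held 6 cultures and the LPS+CGRP group 5 that also received CGRP at 10 nM, so neither group was unstimulated. The animals were 23 young male wild-type Sprague-Dawley rats, all with a standardized periodontal bone defect on the mandible. In sensory nerve- rats a segment of the inferior alveolar nerve was also removed, and in sensory nerve+ rats the nerve was left intact. Healing tissue of mixed cells was taken at day 3, day 7 or day 14 from 3, 4 and 4 sensory nerve+ rats and from 4 sensory nerve- rats on each day. The 4 sensory nerve- day 7 libraries came in a table of their own, so the table and that group cannot be told apart in any comparison that uses them. The 11 cultures came from 1 line, and p-values measure only the spread between these samples.

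Oxidative phosphorylation runs through complexes I to V of the inner mitochondrial membrane. Complex I oxidizes NADH, complex II succinate, complex III ubiquinol and complex IV cytochrome c, and complex V (ATP synthase) uses the resulting proton gradient to make ATP. Most subunits are encoded in the nucleus and some in mitochondrial DNA, and several subunits of complex IV exist in a widely expressed form and in a form of striated muscle, a tissue rich in mitochondria. Macrophages activated with LPS are known to shift towards glycolysis.

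In the macrophages 83 of the 92 members passed the filter on low values. The 9 that did not were Ndufa4l2, Ndufb11b, Ndufs6b, Cox4i2, Cox6b2, Cox7b2, Cox8b, Cox8c and Atp5k-ps4, and none of them exceeded 0.249 CPM (counts scaled to a fixed library total) in any culture. Cox6b2, Cox7b2, Cox8b, Cox8c and Atp5k-ps4 had no read at all. Among those that passed, Ndufa12-ps and Ndufb4c are processed pseudogenes and Ndufb1 a non-coding RNA in the GENCODE annotation. Cox5b-ps is a pseudogene by its symbol, so not every member tested is a subunit gene. The muscle forms Cox6a2 and Cox7a1 passed at low levels, 0.515 to 0.849 CPM and 0.830 to 1.43 CPM over the cultures. Per length of transcript the highest member was Atp5f1b, the catalytic beta subunit of complex V, at a mean of 730.0 RPKM (the same per kilobase). The highest of complex IV was Cox4i1 at 419 RPKM, of complex III Uqcrh at 272, of complex I by symbol Ndufa4 at 222 and of complex II Sdhd at 117. Ndufa4 is now counted with complex IV, and the next member of complex I was Ndufb8 at 190 RPKM. All 9 macrophage markers were listed and summed to 11382 to 11997 CPM in LPS+CGRP and 11460.2 to 11972 CPM in LPS, with C1qa at 0 in LPS+CGRP.

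Whether CGRP changed subunit transcripts was asked by comparing LPS+CGRP with LPS. None of the 83 members was called at an adjusted p under 0.05 by limma, where 0.0168% of 11899 genes were called. At an unadjusted p under 0.05 there were 17 members, all lower, where 5.56% of genes were lower and 5.26% higher by that rule. In 72 of 83 members the log2 fold change lay below 0, where it did in 48.2% of genes, and its median was -0.025 (all genes 0.0015), a change of -1.71%. The medians of complexes I to V were alike, at -0.025, -0.022, -0.036, -0.026 and -0.022. In no member were the groups free of overlap, where 0.664% of genes were lower and 0.513% higher without overlap. On reads recovered from the signal, DESeq2 and edgeR also called 0 members, where they called 0.741% and 0.0% of genes. With single cultures left out the members at an unadjusted p under 0.05 went from 12 without the second LPS+CGRP culture to 27 without the sixth LPS culture, and the median from -0.032 without the sixth LPS culture to -0.015 without the second LPS+CGRP culture. The deposited scaling moved the median of all genes to 0.11 and that of the members to 0.091, so under it the members lay above 0, while 72 of them stayed below the median of all genes. Its factor per read was larger in deeper runs, at 0.877 for 27706333 reads and 1.14 for 35854169. The deposited values therefore do not even out depth, and the sign under them is no measure of CGRP.

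**Figure D1:**
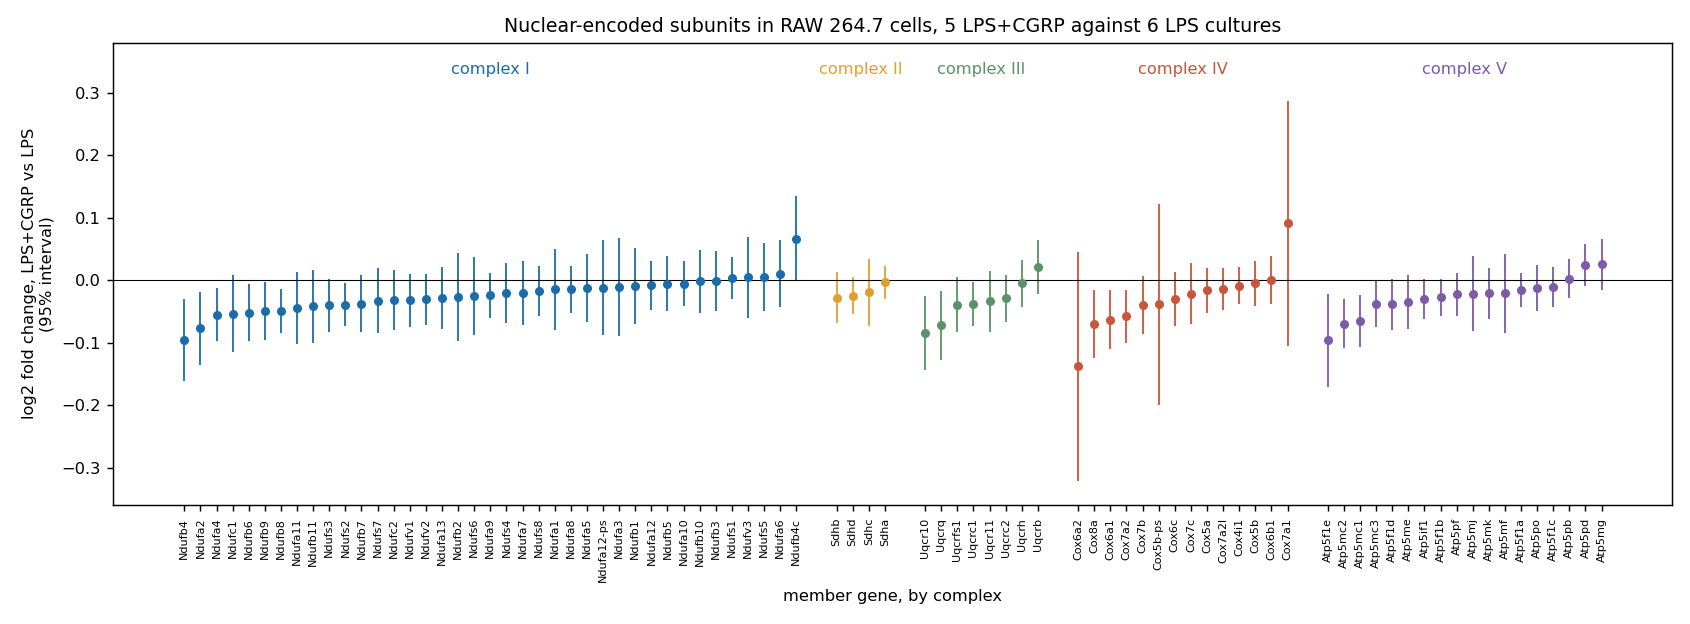
Log2 fold change between LPS+CGRP and LPS of each of the 83 members that passed the filter, grouped by complex, with 95% intervals from 5 against 6 cultures. Most points lie just below 0 (median -0.025), none passed an adjusted p of 0.05, and the widest intervals belong to Cox6a2 and Cox7a1.

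Complex V held the smallest p. Atp5mc2 encodes the c subunit of the membrane ring and lies on mm10 chromosome 15 at 102662864 to 102672352, minus strand. Its lowest, median and highest levels in the 6 LPS cultures were 145, 149 and 154 CPM, and in the 5 LPS+CGRP cultures it stood at 148, 140.2, 145, 138 and 142 CPM. Most cultures with CGRP were low and the first was within the LPS range, so the groups overlapped. The log2 fold change was -0.070 (SE 0.019, 95% interval -0.11 to -0.030, limma adjusted p = 0.198). Atp5mc1, a further gene for the same subunit, was at 112 ± 3.08 CPM in LPS (SD, n = 6) and 107 ± 2.15 CPM in LPS+CGRP (SD, n = 5), with a log2 fold change of -0.065, limma adjusted p = 0.273. The other c subunit gene, Atp5mc3, had -0.039, the epsilon subunit Atp5f1e -0.10 and Atp5f1b -0.028.

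In complex I the members with the smallest p were Ndufb4, Ndufb8, Ndufa2 and Ndufa4, the last of which is now counted with complex IV. Ndufb4 was at 18.5 to 19.7 CPM in the LPS cultures and at 17.4, 17.2, 19.1, 18.4 and 17.1 CPM in the LPS+CGRP cultures. Its groups overlapped, and the log2 fold change was -0.10 (SE 0.031, limma adjusted p = 0.324), beside -0.049, -0.077 and -0.055 for the other 3. In complex II, succinate dehydrogenase, Sdhd, Sdhb, Sdhc and Sdha had log2 fold changes of -0.025, -0.028, -0.020 and -0.0038. In complex III, Uqcr10 and Uqcrq had -0.084 and -0.073, and the core subunit Uqcrc1 and the Rieske protein Uqcrfs1 -0.039 and -0.040. In complex IV, Cox7a2, Cox6a1, Cox8a and Cox7b had -0.058, -0.064, -0.070 and -0.040. Cox6a1 was at 144 to 159 CPM in LPS and at 147, 143, 147, 149.6 and 144 CPM in LPS+CGRP, and here too the groups overlapped. Cox4i1 and Uqcrh had -0.0088 and -0.0053. Over all members the 95% intervals reached no lower than -0.32 (Cox6a2) and no higher than 0.29 (Cox7a1) on the log2 scale.

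Related gene lists of the macrophages also held no call. Of 47 assembly factors tested 30 were below 0 (median -0.019), and Coa7 and Coa5, with the smallest p, had 0.084 and -0.037. Of 10 genes of the pathway that the symbol rule leaves out, 7 were below 0, with cytochrome c1 (Cyc1) at -0.047 and the phosphate carrier Slc25a3 at -0.029. Of the 13 subunits encoded in mitochondrial DNA, 12 lay above 0, with a median of 0.10. Among them ND6, a subunit of complex I, was at 6.66 ± 0.489 CPM in LPS (SD, n = 6) and 7.74 ± 0.476 CPM in LPS+CGRP (SD, n = 5), with a limma log2 fold change 0.20, adjusted p = 0.197, and ND5 had 0.14. Of 13 regulators of mitochondrial biogenesis 9 were above 0 (median 0.012), with Gabpa at 0.038 and Pprc1 at 0.039. Of 19 genes of the citrate cycle and pyruvate oxidation 8 were above 0 (median -0.0040), with Sucla2 at 0.042 and Fh1 at -0.040. At an unadjusted limma p under 0.05 stood 6 of the 13 mitochondrial DNA subunits, where 5.26% of genes were higher and 5.56% lower. The assembly factors held 6 such genes, the genes that the symbol rule leaves out 1, the regulators 2 and the citrate cycle list 2.

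In the rat the totals were 14854389 to 18742274 counts per library, and globin transcripts took 0.263% to 50.1% of them, the highest share in a sensory nerve- day 14 rat. In bulk tissue fewer cells of a type and less RNA per cell cannot be told apart. Of the 86 members 4 passed the filter in no comparison (Ndufa13-ps1, Ndufb4l1-ps1, Atp5hl1 and the entry Ndufs6), and Cox8b failed it in some. The entry Ndufs6 is a pseudogene in current RefSeq annotation, while the protein-coding Ndufs6 and Cox7a1 are listed as LOC679739 and LOC687508, which the symbol rule does not take. In all 28 entries listed under other names have a symbol in RefSeq that the rule would take, and counts of a subunit may be split with near-identical copies.

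Against day 3 the largest log2 fold changes of the members were those of Cox6a2 and Cox8b, muscle forms of complex IV. The 250 bases before the RefSeq starts of Cox6a2, of Cox8b and of the widely expressed Cox8a are shown because the first pair rose after day 3 and the third was not called. They lie in build GRCr8 at chr1:192219717-192219966, chr1:205408274-205408523 and chr1:213833624-213833873, all on the minus strand, and run 5′ to 3′. Capitals mark matches on either strand to CAGCTG (E-box of the myogenic factors), CTA and TAG with 4 bases between them (MEF2) or CCGGAAGT (ETS factors).
Cox6a2: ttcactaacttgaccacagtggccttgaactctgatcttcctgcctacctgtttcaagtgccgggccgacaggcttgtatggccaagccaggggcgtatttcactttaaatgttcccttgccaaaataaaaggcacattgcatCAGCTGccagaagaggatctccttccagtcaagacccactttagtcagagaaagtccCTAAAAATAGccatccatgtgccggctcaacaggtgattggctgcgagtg
Cox8b: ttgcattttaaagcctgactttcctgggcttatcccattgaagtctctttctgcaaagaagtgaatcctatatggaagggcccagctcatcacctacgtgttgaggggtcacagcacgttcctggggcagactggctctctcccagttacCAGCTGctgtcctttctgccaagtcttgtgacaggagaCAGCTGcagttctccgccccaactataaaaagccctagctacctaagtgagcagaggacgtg
Cox8a: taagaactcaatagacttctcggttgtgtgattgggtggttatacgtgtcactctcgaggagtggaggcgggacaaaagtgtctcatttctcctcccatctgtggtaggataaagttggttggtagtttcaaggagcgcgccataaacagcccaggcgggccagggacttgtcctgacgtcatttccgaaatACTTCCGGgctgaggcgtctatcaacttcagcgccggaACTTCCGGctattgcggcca
The Cox6a2 stretch held 1 E-box, 107 bases before the start, and 1 MEF2 match at 50. That of Cox8b held 2 E-boxes, at 100 and 62, and that of Cox8a 2 ETS matches, at 58 and 20, and neither of the other strings. Of 33469 RefSeq promoter windows of this length 12% held the E-box, 3.41% the MEF2 string and 3.10% the ETS string. Of 73 members with a window there, 8, 3 and 8 held them, and 10 (13.7%) held GCGC and TGCGC with 1 base between them, the string of the nuclear respiratory factor NRF1, against 3.75% of all windows. The window of Cox7a1, a muscle form outside the symbol rule (LOC687508), held none of these 4 strings. That of the widely expressed Cox4i1 held an E-box, 80 bases before the start. None of the 4 strings contains another, and a match describes letters only.

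Cox6a2 encodes the heart and skeletal muscle form of subunit 6A. It was at 0.788, 0.287 and 0.979 CPM at day 3 with the nerve intact, at 112, 123, 59.1 and 114 CPM at day 7 and at 209.9, 1.45, 111 and 131 CPM at day 14. Every rat of days 7 and 14 exceeded every rat of day 3, though the second day 14 rat was close to it. The log2 fold change was 7.27 from day 3 to day 7 (SE 0.52, edgeR adjusted p = 0.00139) and 7.40 from day 3 to day 14 (SE 1.64, adjusted p = 0.0491).

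In the sensory nerve- rats Cox6a2 was at 0.292, 0.191, 0.0466 and 4.41 CPM at day 3, at 298, 37.1, 74.1 and 27.5 CPM at day 7 and at 2.36, 11.8, 58.4 and 3.11 CPM at day 14. Days 3 and 7 did not overlap, and days 3 and 14 did. The log2 fold change from day 3 was 6.49 to day 7 (SE 1.46, edgeR adjusted p = 0.0320) and 3.92 to day 14 (SE 1.54, adjusted p = 0.0987). Between sensory nerve- and sensory nerve+ at day 14 it was -2.56 (SE 1.40, edgeR adjusted p = 0.525), with overlap. At day 3 Cox6a2 had 12, 6 and 19 counts with the nerve intact and 5, 4, 1 and 82 counts without it. It passed the filter on low values largely through the later rats, so its calls against day 3 are not independent of that filter.

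Cox8b, the muscle form of subunit 8, had 4 counts in all at day 3 and 1974 at day 7 with the nerve intact, a ratio of 393 per total count (95% interval 153 to 1446, counting error only). It was at 24.2, 29.1, 12.1 and 53.9 CPM at day 7 and at 35.6, 0.349, 22.9 and 32.6 CPM at day 14. All these rats were above all rats of day 3, and the second day 14 rat was again the lowest of its day. The fitted log2 fold changes were 8.59 (SE 0.89, edgeR adjusted p = 0.00407) and 8.18 (SE 1.77, adjusted p = 0.0470). At day 3 Cox8b had 2, 0 and 2 counts with the nerve intact and 0, 1, 0 and 3 without it. It passed the filter on low values only through the later rats, so its calls, here and below, are not independent of that filter. In sensory nerve- rats 4 counts at day 3 stood against 1712 at day 7 (ratio 455, 95% interval 178 to 1674), with a fitted log2 fold change of 8.66 (SE 1.11, edgeR adjusted p = 0.0140). Their levels were 55.4, 7.45, 21.7 and 9.24 CPM at day 7 and 1.06, 2.53, 11 and 0.733 CPM at day 14, and day 14 was not tested against day 3 because Cox8b failed the filter there.

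**Figure D2:**
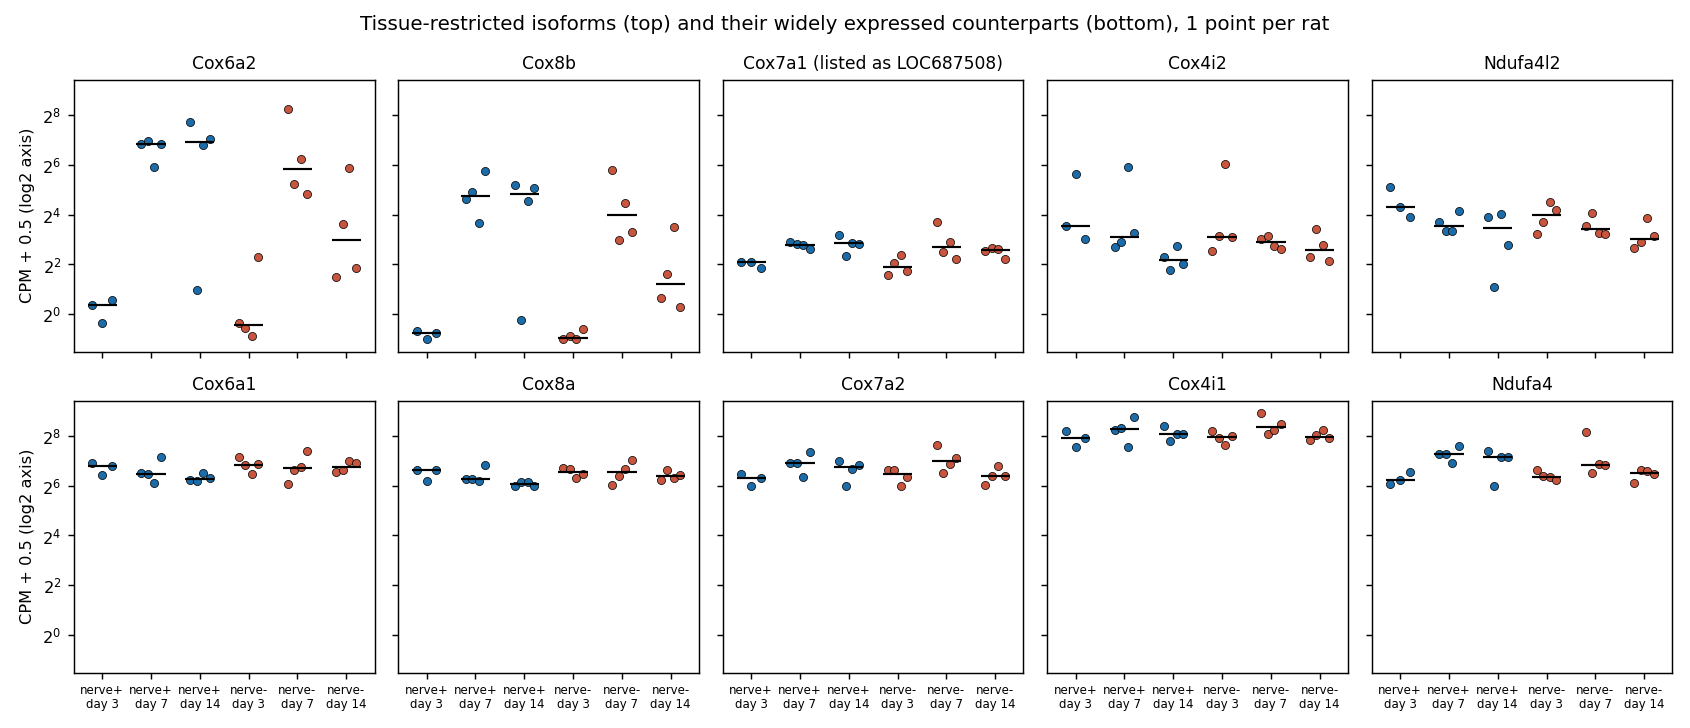
CPM plus 0.5 on a log2 axis in each rat (points, with lines at group medians) for 5 tissue-restricted forms in the top row and their widely expressed counterparts in the bottom row. Cox6a2 and Cox8b span several powers of 2 between days, while Cox6a1 lies between 67.3 and 165 CPM and Cox8a between 62.7 and 131 CPM.

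The widely expressed counterparts were not called. Cox6a1 was at 105 ± 18.9 CPM at day 3 (SD, n = 3) and 96.5 ± 30.8 CPM at day 7 (SD, n = 4) in sensory nerve+ rats, with a log2 fold change of -0.079, and Cox8a was at 89.6 ± 15.6 and 84.8 ± 19.1 CPM, with -0.029. In both the days overlapped. The median ratio of Cox6a2 to Cox6a1 was 0.00651 at day 3, 1.06 at day 7 and 1.44 at day 14 in sensory nerve+ rats, and 0.00188, 0.531 and 0.0741 in sensory nerve- rats. Cox7a1, the other muscle form (listed as LOC687508), was at 3.81, 3.82 and 3.14 CPM at day 3 and at 6.92, 6.47, 6.42 and 5.65 CPM at day 7 in sensory nerve+ rats. The days did not overlap, and the log2 fold change was 0.88 (SE 0.22, edgeR adjusted p = 0.0643). In sensory nerve- rats it stood at 2.45, 3.67, 4.71 and 2.80 CPM at day 3 and 12.5, 5.17, 6.89 and 4.11 CPM at day 7 (log2 fold change 1.06, edgeR adjusted p = 0.133). Its counterpart Cox7a2 had 0.71 in sensory nerve+ rats (SE 0.25, edgeR adjusted p = 0.138). The median ratio of Cox7a1 to Cox7a2 was 0.0433, 0.0560 and 0.0677 at days 3, 7 and 14 in sensory nerve+ rats. In sensory nerve- rats it was 0.0363, 0.0580 and 0.0613, and in both surgery groups the ratios of the days overlapped.

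Skeletal muscle markers moved with the levels of Cox6a2 and Cox8b. The summed level of the 15 markers, all of them listed and none at 0 in all rats of a group, was 62.7 to 329 CPM at day 3, 7391 to 26662 at day 7 and 321 to 33986 at day 14 in sensory nerve+ rats. The lowest day 14 rat was the one with 1.45 CPM of Cox6a2. In sensory nerve- rats the sums were 35.1 to 1008, 2831 to 46638 and 290.1 to 9309 CPM. The 9 slow or cardiac muscle markers summed to 15.4 to 37.4 and 523 to 2044 CPM at days 3 and 7 of sensory nerve+ rats. The part of muscle content in the differences of the members was not tested. The 7 adipocyte markers summed to at most 13.8 CPM, with the brown fat marker Ucp1 at 0 outside the sensory nerve- day 7 group.

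**Figure D3:**
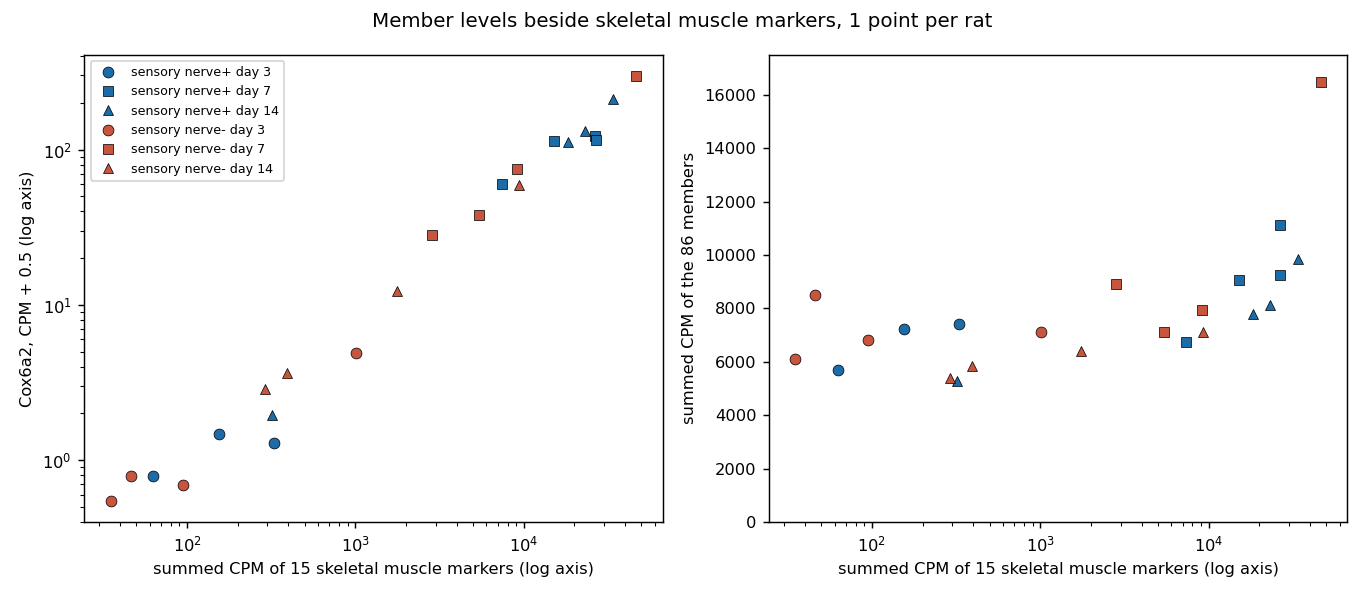
Cox6a2 (CPM plus 0.5, left) and the summed CPM of the 86 members (right) against the summed CPM of 15 skeletal muscle markers (log axis) in the 23 rats, with a log axis for Cox6a2; colour marks the surgery group and shape the day. Cox6a2 is high in the rats with high markers, and the members' sum runs from 5278 to 11109 CPM but for 1 sensory nerve- day 7 rat at 16481 CPM.

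Cox4i2 and Ndufa4l2, forms known from low oxygen, were called in no comparison. Cox4i2 was at 11.2, 48.7 and 7.63 CPM at day 3, at 6.04, 6.99, 59.0 and 9.03 CPM at day 7 and at 4.43, 2.89, 6.2 and 3.55 CPM at day 14 in sensory nerve+ rats, and a single sensory nerve- rat of day 3 reached 64.9 CPM, where the other 11 lay between 3.85 and 10.2 CPM. The 3 rats above 40 CPM had 835, 353 and 489 CPM of the 5 epithelial markers. The third sensory nerve+ day 3 rat had 423 CPM of them beside 7.63 CPM of Cox4i2, and the second sensory nerve- day 3 rat 252 beside 8.24 CPM. The part of epithelium in these values was not tested. Ndufa4l2 was at 22.5 ± 9.94 CPM at day 3 (SD, n = 3) and 12.3 ± 3.51 CPM at day 7 (SD, n = 4), with overlap (log2 fold change -0.82, edgeR adjusted p = 0.192).

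From day 3 to day 7 in sensory nerve+ rats 4 of 82 members were called higher and 0 lower, where 4.88% of 15016 genes were called higher and 1.79% lower, so the share of members is near the background. The members as a group lay higher: 75 of 82 were above 0, where 54.0% of genes were, with a median log2 fold change of 0.50 (all genes 0.050), a change of 41.7%. At an unadjusted p under 0.05 40 were higher, where 14.5% of genes were, and in 19 all day 7 rats exceeded all day 3 rats, where 12.5% of genes did. Complexes I to V had medians of 0.55, 0.42, 0.55, 0.47 and 0.45. DESeq2 called 20 members, all higher, where it called 10.6% of genes higher. With single rats left out the members at an unadjusted p under 0.05 went from 17 without the second day 3 rat to 56 without the third day 7 rat, and the median from 0.39 without the fourth day 7 rat to 0.61 without the third day 7 rat. Leaving out the third day 7 rat gave 18 calls, and leaving out any other single rat 2 or 3. The shares of all genes called in these fits are not given here, so such counts cannot be set against a background.

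Ndufa4 and Ndufa5 were the members called besides the muscle forms. Ndufa4 was at 66.0, 74.4 and 92.6 CPM at day 3 and at 153, 152, 121 and 194 CPM at day 7, without overlap (log2 fold change 1.05, SE 0.20, adjusted p = 0.0274 by edgeR). Ndufa5, an accessory subunit of the matrix arm, went from 30.4, 28.1 and 26.9 CPM to 44.3, 45.6, 45.1 and 60.3 CPM, also without overlap (log2 fold change 0.83, SE 0.15, adjusted p = 0.0265 by edgeR). Ndufs4, an accessory subunit, had 0.59 (edgeR adjusted p = 0.0502). In complex II the flavoprotein Sdha had 0.50, the anchor Sdhd 0.48 and the iron-sulfur subunit Sdhb 0.37. In complex III the core subunit Uqcrc2 was at 130.5, 135 and 172 CPM and then at 261, 261, 179 and 224 CPM, without overlap (log2 fold change 0.71, SE 0.18, adjusted p = 0.0644 by edgeR), beside 0.67 for Uqcrb and 0.66 for Uqcr10. In complex IV Cox7c had 0.77 and Cox4i1 0.42 (edgeR adjusted p = 0.108 and 0.428). In complex V the peripheral stalk subunits Atp5po and Atp5pf had 0.67 and 0.59, and Atp5f1e 0.93 (edgeR adjusted p = 0.0977).

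**Figure D4:**
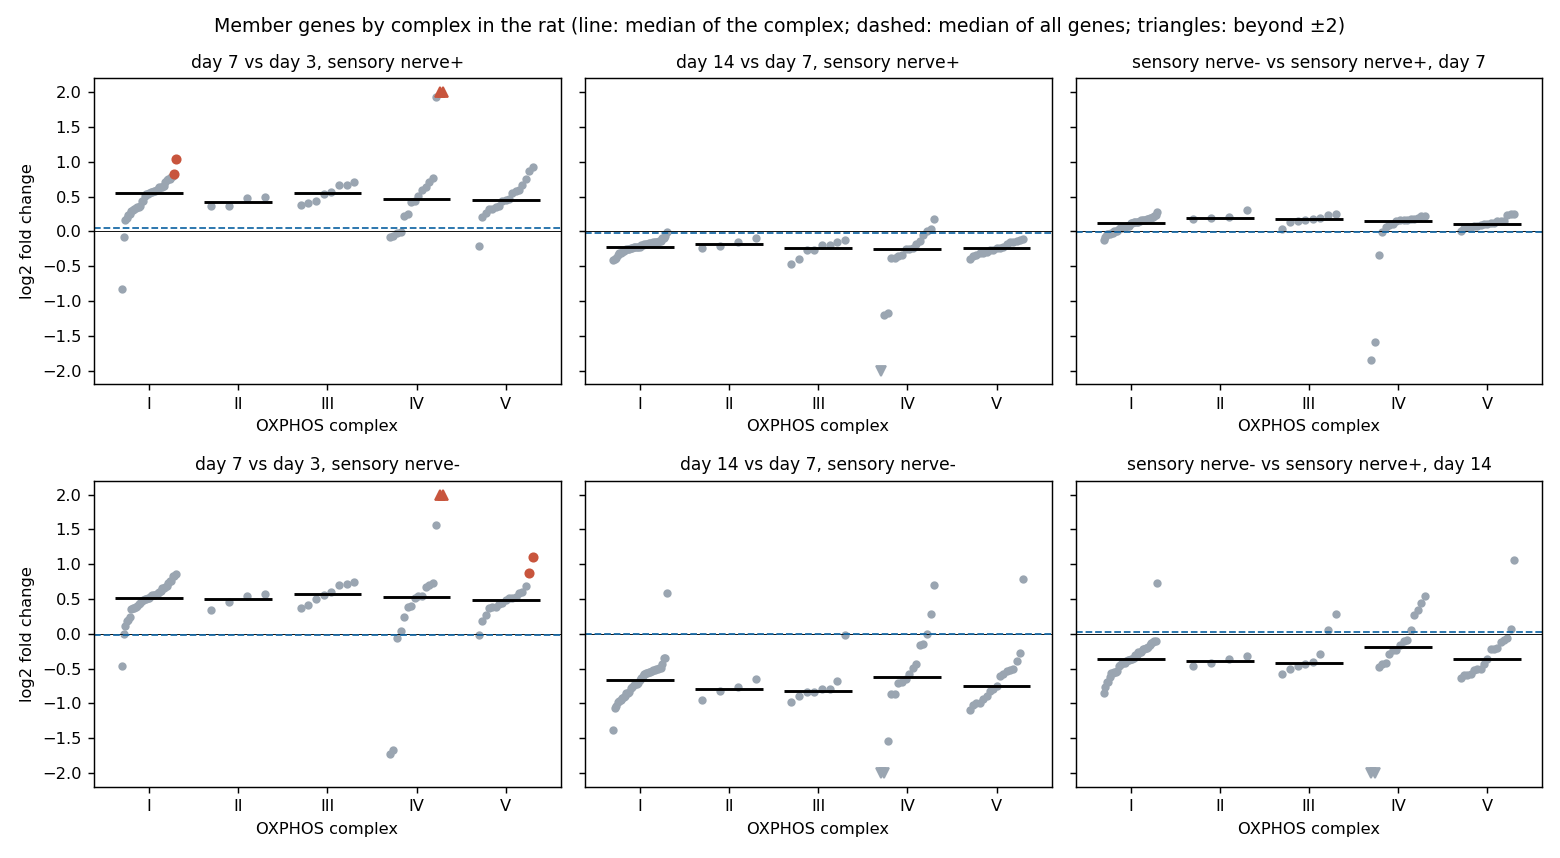
Log2 fold change of each member by complex in 6 comparisons of the rat (points, red where the edgeR adjusted p is under 0.05, triangles where it lies beyond the axis), with a line at the median of each complex and a dashed line at that of all genes. The medians of the 5 complexes lie above 0 from day 3 to day 7 in both surgery groups (0.55, 0.42, 0.55, 0.47 and 0.45 in sensory nerve+) and below 0 for sensory nerve- against sensory nerve+ at day 14 (-0.36, -0.39, -0.42, -0.20 and -0.37).

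From day 3 to day 14 in sensory nerve+ rats 2 of 82 members were called higher, Cox6a2 and Cox8b, and 0 lower, where 2.69% of genes were called higher and 3.09% lower. The median was 0.24 (all genes 0.0031) and ran from 0.13 without the second day 3 rat to 0.40 without the second day 14 rat. Leaving out the second day 14 rat gave 15 calls, and leaving out any other single rat 0, again without the shares of all genes. Atp5f1e had 0.65 without overlap (SE 0.15, edgeR adjusted p = 0.0526), and Ndufb10, Uqcrc2 and Sdha had 0.45, 0.46 and 0.35. From day 7 to day 14, edgeR and DESeq2 called 0 of 82 members, where edgeR called 0.0135% of genes higher and 0.00673% lower, and DESeq2 2.22% in either direction. 1 member was lower at an unadjusted p under 0.05 (4.22% of genes), Cox4i2 with -2.26, which the third day 7 rat carried (-0.75 without it). Of the members 79 were below 0 (53.4% of genes), with a median of -0.23 (all genes -0.022) that ran from -0.33 without the first day 14 rat to -0.067 without the second day 14 rat, and with Uqcr10 at -0.46, Ndufs5 at -0.38, Atp5mf at -0.32 and Sdhb at -0.24.

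In sensory nerve- rats 4 of 82 members were called higher from day 3 to day 7 and 0 lower, where 3.68% of genes were called higher and 6.77% lower. Beside Cox8b and Cox6a2 they were Atp5f1e and Atp5me, both of ATP synthase. Atp5f1e was at 53.0, 53.1, 42.1 and 46.2 CPM at day 3 and at 107, 59.1, 88.3 and 104 CPM at day 7 (log2 fold change 0.87, SE 0.19, adjusted p = 0.0299 by edgeR). Atp5me, the e subunit, was at 15.3, 14.5, 12.9 and 11.3 CPM and then at 42.5, 16.3, 27.3 and 30.9 CPM (log2 fold change 1.11, SE 0.28, adjusted p = 0.0433 by edgeR). In both no rat of day 3 overlapped day 7. The median was 0.52 (all genes -0.015) and ran from 0.21 without the first day 7 rat to 0.65 without the second day 7 rat, with 0.52, 0.50, 0.58, 0.53 and 0.48 for complexes I to V, and Ndufa1, Uqcrb and Sdhd had 0.56, 0.70 and 0.57. Leaving out the second day 7 rat gave 9 calls, and leaving out any other single rat 0 to 2, again without the shares of all genes.

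From day 7 to day 14 the members of sensory nerve- rats lay lower, with 78 of 82 below 0 (50.8% of genes) and a median of -0.71 (all genes -0.0097), a change of -38.8%. The median sum of the skeletal muscle markers went from 7279.6 to 1073 CPM over these days, that of the 7 erythroid markers from 42671 to 319614 CPM, while globin took 1.59% to 13.8% of counts at day 7 and 0.263% to 50.1% at day 14, and their part in the difference was not tested. None was called by edgeR, where 0.0138% of genes were called higher and 0.0% lower. At an unadjusted p under 0.05 57 members were lower, where 11.1% of genes were, and in 33 every day 14 rat was below every day 7 rat, where 6.73% of genes were. With single rats left out the members at an unadjusted p under 0.05 went from 19 without the first day 14 rat to 64 without the second day 7 rat, and the median from -0.86 without the second day 7 rat to -0.39 without the first day 7 rat. DESeq2 called 15 members and the fit of all 23 rats 16, all lower, where they called 5.93% and 2.8% of genes lower. Complexes I to V had medians of -0.67, -0.79, -0.82, -0.62 and -0.76. Ndufb6 was at 49.7, 32.1, 40.7 and 43.1 CPM at day 7 and at 22.4, 23.7, 20.4 and 24.0 CPM at day 14 (log2 fold change -0.86, SE 0.16, adjusted p = 0.104 by edgeR). Sdhd went from 271, 116, 142 and 158 CPM to 74.8, 92.9, 96.3 and 87.9 CPM (log2 fold change -0.95, SE 0.26, adjusted p = 0.115 by edgeR). The days did not overlap in either gene, nor in Uqcrb, Cox7c and Atp5mk, which had -0.90, -0.87 and -1.10.

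Set against day 3, day 14 of sensory nerve- rats had 2 of 81 members called higher and 5 lower, where 8.89% of genes were called higher and 14.6% lower, so both shares of members were below the background. Cox7a2l, which takes part in joining complexes III and IV, was at 134, 121, 120.1 and 118 CPM at day 3 and at 181, 173, 162 and 195 CPM at day 14, without overlap (log2 fold change 0.50, SE 0.10, adjusted p = 0.0142 by edgeR). Ndufa1 was at 31.8, 28.9, 25.7 and 26.5 CPM and then at 68.8, 29.8, 99.7 and 50.6 CPM, with overlap (log2 fold change 1.12, SE 0.33, adjusted p = 0.0446 by edgeR). The lower members were Atp5f1a, the alpha subunit of ATP synthase (-0.65), Ndufb6 (-0.65), Atp5f1c (-0.56), Uqcrc1 (-0.51) and Ndufc2 (-0.47), none with overlap. Atp5f1a was at 728, 486, 545 and 612 CPM at day 3 and at 371, 362, 426 and 380.3 CPM at day 14. Sdhb, with the smallest p of complex II, had -0.41 (edgeR adjusted p = 0.0634). The median was -0.24 (all genes -0.048), and scaling by library total moved it to -0.61 and that of all genes to -0.42. With single rats left out it ran from -0.30 without the second day 14 rat to -0.088 without the first day 3 rat. Leaving out the second day 14 rat gave 15 calls, and leaving out any other single rat 2 to 6, again without the shares of all genes.

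Whether the nerve mattered was asked by comparing sensory nerve- with sensory nerve+ on each day, and no member was called on any of them by edgeR or DESeq2, where edgeR called 0.0% of genes higher and 0.0% lower on each and DESeq2 0.0%, 0.00691% and 0.665% in either direction on days 3, 7 and 14. At day 3 0 of 81 members had an unadjusted p under 0.05, with a median log2 fold change of 0.065 (all genes -0.0074) that ran from -0.018 without the second sensory nerve+ rat to 0.14 without the first sensory nerve+ rat. At day 7 there was 1 of 82, lower, where 1.03% of genes were, with a median of 0.13 (all genes -0.0065) that ran from -0.16 without the first sensory nerve- rat to 0.28 without the fourth sensory nerve+ rat, so at days 3 and 7 its sign turned with 1 rat. At day 14 13 of 82 were lower and 3 higher by that rule, where 4.98% and 4.35% of genes were, and the median was -0.36 (all genes 0.026), with 72 below 0, where 46.6% of genes were. With single rats left out the members at an unadjusted p under 0.05 went from 2 without the first sensory nerve+ rat to 54 without the second sensory nerve+ rat, and the median from -0.55 without the second sensory nerve+ rat to -0.23 without the first sensory nerve+ rat. Scaling by library total moved the day 14 medians to -0.77 and -0.41. Complexes I to V had day 14 medians of -0.36, -0.39, -0.42, -0.20 and -0.37. The median sums of the skeletal muscle markers at day 14 were 1073 CPM in sensory nerve- and 20659 CPM in sensory nerve+ rats, and globin took 0.263% to 50.1% and 1.38% to 20.2% of counts. Their part in these differences was not tested.

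At day 14 the members with the smallest p of their complexes were Ndufb3 (-0.77), Sdha (-0.46), Uqcrc1 (-0.51), Cox6a1 (0.45) and Atp5f1c (-0.63), each with an edgeR adjusted p of 0.519. Cox6a1 was at 93.1, 97.1, 126 and 118 CPM in sensory nerve- rats and at 75, 72.6, 90.8 and 79.2 CPM in sensory nerve+ rats, without overlap, but library total scaling turned its sign (-0.038). In the other 4 the groups overlapped. At day 7 the corresponding members were Cox6b2 (-1.85, and -0.67 without the third sensory nerve+ rat), Sdhd (0.30), Atp5f1a (0.26), Uqcr10 (0.25) and Ndufb6 (0.18), and at day 3 Atp5pf (0.19), Ndufb2 (0.18), Cox7b (0.16), Sdhc (0.14) and Uqcrc2 (0.13). Cox6b2 was at 1.08, 0.886, 8.73 and 2.62 CPM at day 7 with the nerve intact and at 0.786, 0.816, 1.03 and 1.15 CPM without it, and only the third rat with the nerve stood high.

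The change with time was also tested for a difference between the surgery groups, and edgeR and DESeq2 called 0 of 82 members for day 7 and 0 for day 14, where edgeR called 0.0% of 15858 genes in either direction and DESeq2 0.0507% and 0.19% of genes. For day 7 against day 3 the median difference was 0.069 (all genes -0.0090), with 0 members at an unadjusted p under 0.05, and Cox6b2, Atp5me, Ndufv3, Uqcrfs1 and Sdhb had -1.60, 0.29, 0.15, 0.14 and 0.14. That of Cox6b2 was -0.46 without the third sensory nerve+ day 7 rat and -0.52 without the third sensory nerve- day 3 rat, and the median ran from -0.25 without the first sensory nerve- day 7 rat to 0.21 without the fourth sensory nerve+ day 7 rat. For day 14 the median was -0.41 (all genes 0.035), from -0.56 without the second sensory nerve+ day 14 rat to -0.30 without the first sensory nerve+ day 14 rat, with 1 such member, lower, where 4.07% of genes were, Ndufa5 (log2 fold change -0.85, SE 0.38, adjusted p = 0.751 by edgeR). Sdhd, Uqcrc1, Cox7a2l and Atp5if1, the inhibitor of ATP synthase, had -0.57, -0.64, 0.36 and 1.16. The time courses of the surgery groups are therefore not shown to differ.

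Related gene lists in the rat were counted in the same fits. From day 3 to day 7 in sensory nerve+ rats 2 of 45 assembly factors were called higher (median 0.35), where 4.88% of all genes were, Tmem70 of ATP synthase assembly (edgeR log2 fold change 1.12, adjusted p = 0.0148) and Ecsit of complex I assembly (edgeR log2 fold change 0.66, adjusted p = 0.0382). Of 19 citrate cycle and pyruvate genes 3 were called higher (median 0.46), Mpc1, the pyruvate carrier (1.12), Idh3b (0.68) and Sucla2 (1.02). Of 10 pathway genes outside the symbol rule 1 was called, Slc25a4, the adenine nucleotide carrier of muscle and heart (edgeR log2 fold change 1.06, adjusted p = 0.0303), while Vdac3 had 0.45. Of 15 regulators 0 were called (median -0.0048), with Polg at -0.59 and Pprc1 at -0.74. From day 7 to day 14 in sensory nerve- rats no gene of these lists was called, and 45 of 45 assembly factors (median -0.48) and 19 of 19 citrate cycle and pyruvate genes (median -0.90) were below 0. Subunits encoded in mitochondrial DNA were not analysed here in the rat.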

How the data were processed

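Expression was measured by RNA sequencing of 11 RAW264.7 cultures (NextSeq) and of 23 rat tissues (DNBSEQ). For the mouse the authors trimmed reads with Cutadapt, aligned them to mm10 with STAR and counted them with featureCounts. The values they deposited are a signal per run, equal to whole reads times 1 factor per run: 100% of the values in the 22 runs came out whole within 0.01. For the rat the authors deposited estimated counts per gene, of which 37.0% were exactly whole, after alignment with HISAT to mRatBN7.2 (Bowtie2 is also named in the submitters' processing notes), and the program that counted them is not given in the sources used here. No columns of per-sample values were left unused.

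Members and lists were chosen with earlier results of these data known. The 2 runs of a culture were summed, giving 55614185 to 71538840 reads. The mouse was tested with limma (3.58.1, trend) on log2 of CPM plus 0.5 after TMM scaling, over genes with at least 0.5 CPM in at least 5 cultures, so a fold change of low genes is understated. Rat counts, 14854389 to 18742274 per library, were rounded and tested with edgeR (4.0.16, quasi-likelihood test, TMM, filterByExpr) on the groups compared only, in R 4.3.3, with Benjamini-Hochberg adjustment over all genes and a threshold of 0.05. CPM here is after TMM scaling, intervals cover 95%, and those of ratios of counts cover counting error only. Depth sets how precisely low members such as Cox8b are known. All tests are two-sided.

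Named members were the 4 with the smallest p in each complex for the macrophages, the 3 for day 7 against day 3 in sensory nerve+ rats and 1 for each other comparison, the isoform pairs, the highest per length, those called and those that failed the filter, and of each related list the 2 genes with the smallest p in those main comparisons. Sucla2 in the rat was named after its value was seen. Alternatives were DESeq2 (1.42.0), edgeR on recovered reads, other scalings, filters and pseudocounts, single runs, all rats in 1 fit, a replicate block and each sample left out, and, added after the data were seen, each run as a sample. The labels do not say that equal replicate numbers pair samples, so they were not taken to. Same-numbered samples did not deviate together in every pair of any comparison, which does not exclude pairing. Between surgery groups at day 7 the deviations of 3 of 4 same-numbered pairs correlated above 0.1 (mean r 0.15, other pairs -0.051). The tests were also run on simulated counts of independent genes with 1 fixed spread per organism. These hold no differences in muscle or globin content between rats, so they do not show how the tests perform on this tissue. Promoter windows came from RefSeq (GRCr8), matched by gene.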

Additional observations from a re-analysis of the deposited data

Results flagged for a closer look

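In 31 of 251 groups of 4 to 6 samples, the highest or the lowest sample lay further from its nearest neighbour than Dixon's 95% critical value allows. For independent normal groups that value flags about 1 in 20 by chance. The groups here are genes measured in the same samples and are not independent, so the count cannot be set against that rate. Sensory nerve- day 7 replicate 1 lay past that value as the highest of its 4 rats for 12 members: Sdhc (213 CPM), Uqcrc2 (536 CPM), Atp5f1a (1443 CPM), Ndufb3 (74.1 CPM), Sdha (371 CPM), Uqcrc1 (311 CPM), Atp5f1c (421 CPM), Ndufa4 (286 CPM), Ndufs4 (95.5 CPM), Atp5po (270.1 CPM), Ndufb10 (111 CPM) and Uqcrfs1 (323 CPM). This rat also had the highest summed level of the 15 skeletal muscle markers, 46638 CPM. The groups screened did not cover every member, so 12 is not a full count for this rat. Ndufv1, for example, is not among them, though it had 4687 counts in this rat against 1847, 2052 and 1619 in the others of its group. The part of muscle content in these values was not tested.

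LPS replicate 6 stood apart as the lowest of its group for Sdhd (142 CPM) and Atp5mc1 (106 CPM). LPS+CGRP replicate 2 stood apart as the lowest of its group for Cox4i1 (301 CPM). Sensory nerve- day 14 replicate 3 stood apart as the highest of its group for Uqcrc2 (161 CPM) and Cox6a2 (58.4 CPM). Sensory nerve- day 3 replicate 3 stood apart as the highest of its group for Cox6b2 (7.88 CPM) and Cox4i2 (64.9 CPM). Sensory nerve+ day 7 replicate 3 stood apart as the highest of its group for Cox4i2 (59.0 CPM). Sensory nerve+ day 7 replicate 3 stood apart as the lowest of its group for Sdha (138 CPM) and Cox6a2 (59.1 CPM). Sensory nerve- day 3 replicate 4 stood apart as the highest of its group for Cox6a2 (4.41 CPM). Sensory nerve+ day 7 replicate 4 stood apart as the highest of its group for Ndufa5 (60.3 CPM), Atp5f1e (132 CPM), Cox8a (113 CPM) and Atp5me (44.7 CPM). Sensory nerve- day 14 replicate 2 stood apart as the highest of its group for Atp5f1e (111 CPM). Sensory nerve- day 3 replicate 1 stood apart as the highest of its group for Ndufb10 (49.7 CPM) and Ndufc2 (56.0 CPM). Sensory nerve+ day 14 replicate 2 stood apart as the lowest of its group for Ndufc2 (30.2 CPM).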

How the results depend on the processing

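From day 3 to day 7 in sensory nerve+ rats DESeq2 called 20 members, library total scaling 2 and the replicate block 2, against 4 in the report, with 2 to 18 when single rats were left out. From day 3 to day 14 the counts were 4 with DESeq2, 1 with RLE size factors, 0 with no filter and 0 with the block, against 2, and 0 to 15 with single rats left out. In sensory nerve- rats day 7 gave 13 with DESeq2, 7 with all 23 rats in 1 fit and 0 with the block, against 4, and 0 to 9. Day 14 against day 3 gave 11 with DESeq2, 4 with RLE, 1 with library total and 2 with the block, against 7, and 2 to 15. Day 14 against day 7 gave 15 with DESeq2 and 16 with all rats, against 0, and 0 to 1. With each run as a sample, an alternative chosen after seeing the data in which runs of 1 culture are not independent, limma, edgeR and DESeq2 called 3, 4 and 14 members in the macrophages, all lower. The shares of all genes that these fits called are not given here, so those counts cannot be set against a background. In the rat comparisons above, in that order, DESeq2 called 18.9%, 22.6%, 22.4%, 34.0% and 13.8% of all genes in either direction. The cause of these differences was not tested, and the shares of all genes called with single rats left out are not given here. The other comparisons kept 0 calls under every alternative run. The replicate block changed no other count of calls, and the labels do not say whether same-numbered samples share more than a number.

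The median of the members turned sign with single rats left out between surgery groups at day 3 (-0.018 to 0.14) and day 7 (-0.16 to 0.28) and in the interaction at day 7 (-0.25 to 0.21), and under the deposited scaling in the macrophages. The deposited scaling does not even out depth between the macrophage cultures, so signs under it are no measure of CGRP. Of the named members these turned sign. Under the deposited scaling, which moves all genes by 0.11, the macrophage log2 fold changes were 0.017 (Ndufb4), 0.020 (Atp5f1e), 0.031 (Uqcr10), 0.039 (Ndufa2), 0.043 (Uqcrq), 0.046 (Cox8a), 0.046 (Atp5mc2), 0.051 (Atp5mc1), 0.053 (Cox6a1), 0.058 (Cox7a2), 0.061 (Ndufa4), 0.067 (Ndufb8), 0.076 (Cox7b), 0.076 (Uqcrfs1), 0.078 (Atp5mc3), 0.078 (Uqcrc1), 0.088 (Sdhb), 0.089 (Atp5f1b), 0.091 (Sdhd), 0.10 (Sdhc), 0.11 (Cox4i1), 0.11 (Uqcrh), 0.11 (Sdha). Uqcrh was 0.0010 with the replicate block and Sdha 0.011 with run 2 alone. Library total scaling gave -0.038 for Cox6a1 between surgery groups at day 14, 0.032 for Cox4i2 from day 3 to day 7 and -0.15 for Cox7a2l in the interaction at day 14. With single samples left out the ranges were -0.0070 to 0.0028 (Sdha), -0.035 to 0.0012 (Sdhc), -0.014 to 0.0034 (Cox4i1) and -0.015 to 0.011 (Uqcrh) in macrophages, -1.58 to 1.18 (Cox4i2), -0.29 to 0.050 (Cox6a1) and -0.18 to 0.033 (Cox8a) from day 3 to day 7 in sensory nerve+ rats, -0.0040 to 0.46 (Sdhd) and -0.23 to 0.40 (Atp5f1a) between surgery groups at day 7, and -0.011 to 0.28 (Ndufv3), -0.12 to 0.27 (Sdhb) and -0.30 to 0.30 (Uqcrfs1) in the interaction at day 7. None of these was a call.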
